A study of Mus musculus with 6 samples.

Results

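The endoplasmic reticulum (ER) genes described here are 43 genes of chaperones, disulfide isomerases, N-glycan transfer and trimming, the sensors of the unfolded protein response (UPR) and ER-associated degradation (ERAD). They were found by gene symbol in a table of 45777 genes. The list was chosen by function with the fold changes between the genotypes in these same livers already known, so those fold changes, and the threshold by which they are sorted, are a description and not a test of the list. Liver RNA came from 3 wild-type (WT) mice, which carried Pak4 flox/flox without Cre, and 3 liver-specific knockout (LKO) mice, which carried Alb-Cre with Pak4 flox/flox. All were C57BL/6 mice, 8 weeks old, and had been fasted for 24 h before the liver was taken. The paper describes them as male. One library was sequenced per mouse. Cre made from the albumin promoter acts in hepatocytes, so other liver cells of LKO mice keep Pak4, and the WT group carries no Cre as a control.

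The ER is where secreted and membrane proteins enter the secretory pathway, fold, form disulfide bonds and receive N-linked glycans. When unfolded proteins build up, the sensors IRE1, PERK and ATF6 start the UPR, which lowers translation and raises the transcription of chaperones and of the ERAD machinery that sends misfolded proteins to the proteasome. The hepatocyte carries a heavy secretory load, since it makes albumin, clotting factors and apolipoproteins. Many UPR genes share a promoter element, the ER stress response element (ERSE), whose CCAAT part binds NF-Y and whose CCACG part binds ATF6 or XBP1.

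That element is shown first because it was found in several of these genes. The 250 bases before the transcription start were searched on both strands in RefSeq promoter windows (GRCm38.p6, the assembly also called mm10) for ERSE, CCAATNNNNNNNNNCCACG, for ERSE-II, ATTGGNCCACG, and for the UPR element, TGACGTGG. A window was matched for 38 of the 43 members, and none was matched for Atf6, Alg2, Derl1, Hyou1 and Manf. ERSE or ERSE-II was found in 11 of the 38 members (28.9%) and in 45 of all 27025 genes with a window (0.167%). The list was chosen by function and holds UPR genes, many of which are known to share this element. The share among members is therefore a description and not a test of the list. Of these 11, 10 held ERSE and 1, Herpud1, held ERSE-II. The UPR element was found in 0 of 38 members and in 163 of all windows (0.603%). No member held ERSE and ERSE-II together. The following stretches lie before the start of 8 members, 3 not called and 5 lower in LKO livers in the comparison below, and the capitals mark the fixed letters of ERSE, which read CGTGG and ATTGG when the element lies on the other strand, or the whole of ERSE-II in Herpud1, its free base included.
Hspa5 (chr2:34772010-34772058, plus strand): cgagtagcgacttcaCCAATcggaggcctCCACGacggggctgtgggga
Hsp90b1 (chr10:86705518-86705671, minus strand): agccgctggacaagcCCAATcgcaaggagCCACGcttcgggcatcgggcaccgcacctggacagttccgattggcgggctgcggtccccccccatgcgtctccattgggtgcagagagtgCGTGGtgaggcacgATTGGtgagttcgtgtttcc
Dnajc3 (chr14:118937812-118937860, plus strand): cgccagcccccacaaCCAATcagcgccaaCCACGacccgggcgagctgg
Creld2 (chr15:88819505-88819553, plus strand): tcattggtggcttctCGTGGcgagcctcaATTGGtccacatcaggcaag
Ero1lb (chr13:12565667-12565715, plus strand): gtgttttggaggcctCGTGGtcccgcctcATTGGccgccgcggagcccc
Calr (chr8:84847060-84847108, minus strand): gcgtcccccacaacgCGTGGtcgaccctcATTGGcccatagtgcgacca
Syvn1 (chr19:6046517-6046565, plus strand): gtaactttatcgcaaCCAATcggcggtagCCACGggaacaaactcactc
Herpud1 (chr8:94386362-94386402, plus strand): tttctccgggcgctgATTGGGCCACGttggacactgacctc
Hsp90b1 was the one member with 2 complete ERSE matches, which lie on opposite strands of its window. The other members with ERSE were Canx, Derl3 and Pdia6. A match describes letters in this window and does not show that a factor binds there.

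Total counts were 45934632 to 55205564 in WT and 53936281 to 59576437 in LKO livers, and the libraries differed in composition. Protein-coding genes took 88.5% to 89.6% of the counts in WT and 77.3% to 80.7% in LKO livers, and the 7SL RNA genes Rn7s1 and Rn7s2 took 4.55% to 5.24% and 11.2% to 15.8%. Counts were scaled by the trimmed mean of M values (TMM), which sets a trimmed mean of the log2 ratios near 0. The median log2 fold change was -0.04 over 18636 genes tested, and 40.1% of them were called in either direction (edgeR, adjusted p under 0.05). Scaling by total counts instead moved that median by -0.86, and the use of log2(TPM + 1) moved it by -0.75. Every log2 fold change below at TMM scaling is therefore relative to other genes. With total counts or log2(TPM + 1), the values of Hsp90b1 and Uggt2 were negative. Pak4 itself had 268, 210 and 271 reads in WT and 85, 52 and 149 reads in LKO livers. Its log2 fold change of -0.71 (SE 0.31) did not pass the test (edgeR quasi-likelihood, adjusted p = 0.10), and the TMM-scaled level of LKO mouse 3 (3.22 CPM, counts scaled to library size) reached that of WT mouse 2 (3.21 CPM). 

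All 43 members had enough reads to be tested. In LKO livers, 31 members were lower and 1, Uggt2, was higher at an adjusted p-value under 0.05 in the edgeR fit over all genes, while 11 did not pass. Words such as lower, fell or call below refer to this threshold. Of all 18636 genes tested, 20.5% were lower and 19.6% were higher by that rule. Without LKO mouse 3, 28 members were lower and 1 was higher (20.3% and 18.9% of all genes), and with total counts in place of TMM, 41 were lower and none was higher (51.4% and 6.27% of all genes). The median log2 fold change of the members was -0.90, against -0.04 over all genes, and 41 of 43 members had a value below 0, as did 51.6% of all genes. The 3 WT and 3 LKO livers did not overlap for 31 members that were lower and 2 that were higher, where 27.9% and 26.1% of all genes did not overlap in these directions. Together the members took 1.41%, 1.09% and 1.03% of the protein-coding counts of the 3 WT livers, and 0.47%, 0.50% and 0.50% of those of the 3 LKO livers. These are shares of unscaled counts. At TMM scaling the members summed to 6739 to 9292 CPM in WT and 4461 to 6107 CPM in LKO livers. Because the tissue is bulk liver, fewer cells of a type and less RNA per cell cannot be told apart.

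**Figure D1:**
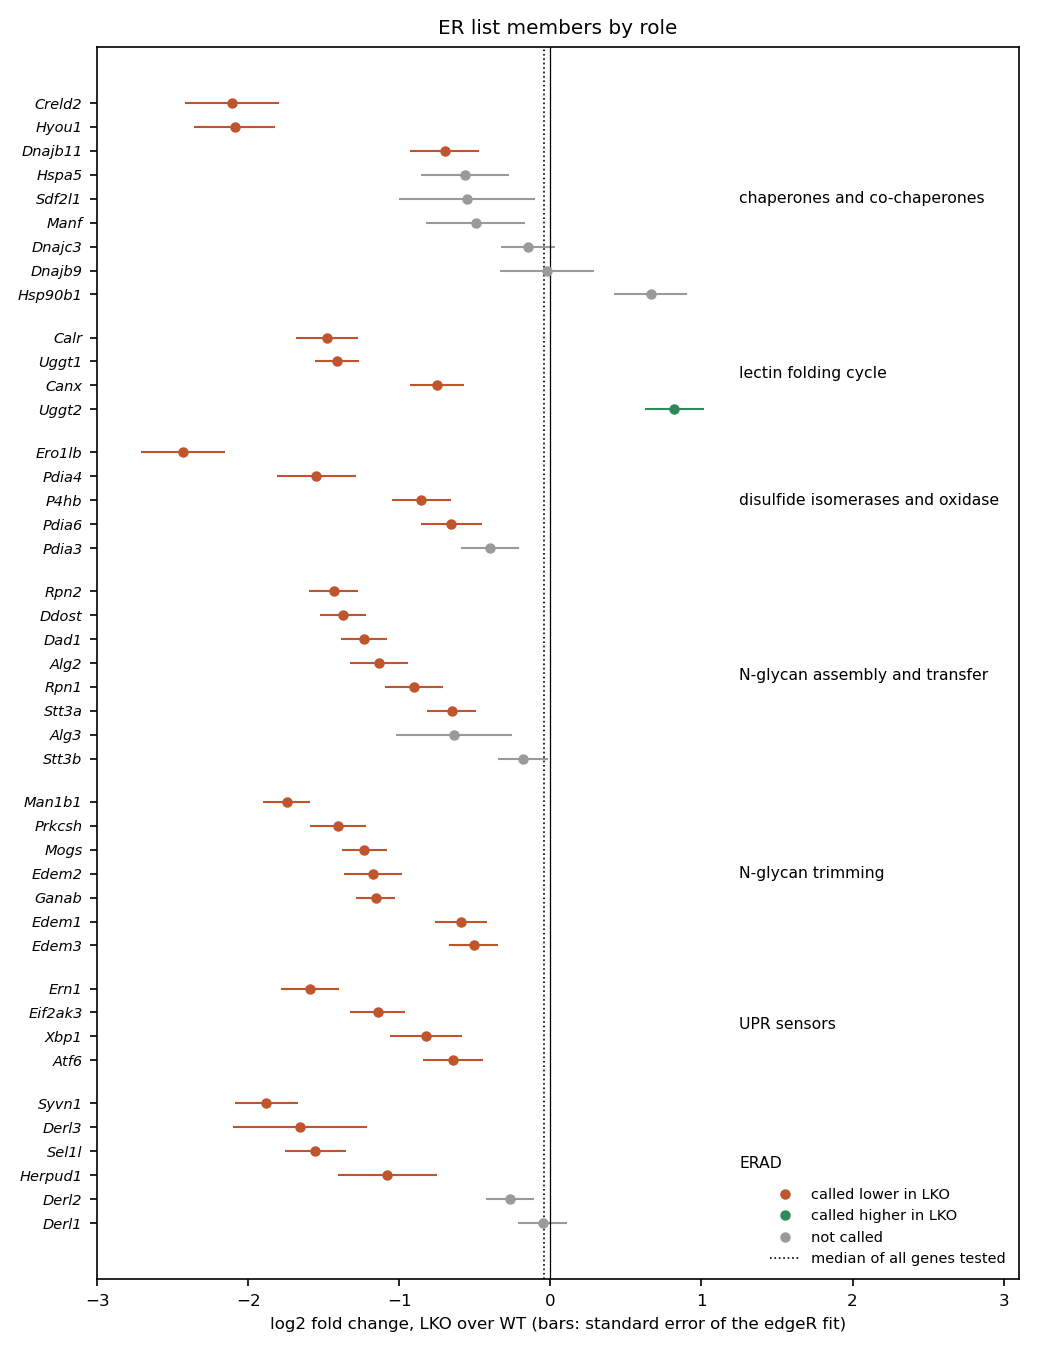
Log2 fold change (LKO over WT, TMM-scaled counts, edgeR) of the 43 members in blocks by role, with bars for the standard error of the fit, a solid line at 0 and a dotted line at the median of all genes tested (-0.04). The values run from -2.43 (Ero1lb) to 0.82 (Uggt2), and Hsp90b1 and Uggt2 lie to the right of 0, where total counts or TPM place them below 0.

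Among the 9 chaperones and co-chaperones, 3 were lower, none was higher and 6 did not pass, with a median of -0.55. Hyou1 encodes the ER chaperone ORP150, which acts as a nucleotide exchange factor for BiP. Its level was 247, 133 and 163 CPM in WT and 33.2, 51.7 and 42.8 CPM in LKO livers, a log2 fold change of -2.09 (SE 0.27), or 4.25-fold lower. The lowest WT liver was above every LKO liver. Creld2, a secreted ER stress protein with disulfide isomerase activity, had 86.8, 45.1 and 50.1 CPM in WT and 9.47, 17.3 and 15.6 CPM in LKO livers, 4.30-fold lower (log2 -2.11, SE 0.31). Its genotypes likewise did not overlap. Dnajb11, a J-domain co-chaperone of BiP, fell less, with 54.1 to 87.4 CPM in WT and 34.1 to 53.1 CPM in LKO livers (log2 -0.70, SE 0.23), and its call was lost without WT mouse 1 or 3 or LKO mouse 1 or 3.

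Hspa5 and Hsp90b1, the 2 most abundant members, did not pass in this fit. Hspa5 encodes BiP, the ER HSP70 that holds the UPR sensors inactive. It had 1479, 816 and 941 CPM in WT and 524, 853 and 810.2 CPM in LKO livers, with a log2 fold change of -0.56 (SE 0.29). WT mouse 1 stood far above the other WT mice, and LKO mice 2 and 3 were at the level of WT mouse 2. Hsp90b1 encodes GRP94, the ER HSP90. It had 1049, 761 and 784 CPM in WT and 1113, 1721 and 1276 CPM in LKO livers, with a log2 fold change of 0.66 (SE 0.24). All 3 LKO livers were above all WT livers at this scaling, and Hsp90b1 was called higher in 8 and lower in 2 of the 21 settings tried. It was called higher without LKO mouse 1. On TPM it was lower in LKO livers, 616 ± 114 in WT and 329.6 ± 30.3 in LKO (SD, n = 3). On log2(TPM + 1), however, limma called 71.5% of all genes lower. Relative to the all-gene median of the same fit, Hsp90b1 ran from -0.10 to 0.86 over the settings. The remaining chaperones overlapped between the genotypes. Dnajb9 (ERdj4), a J-domain partner of BiP, had 30.3 to 49.0 CPM in WT and 24.1 to 56.1 CPM in LKO livers (log2 -0.02, SE 0.31). Dnajc3 (P58IPK), an inhibitor of PERK, had 315 to 381 and 257 to 343 CPM (log2 -0.15, SE 0.18). Manf, a secreted ER stress factor, had 62.4 to 110.2 and 35.0 to 84.1 CPM (log2 -0.49, SE 0.33). The scarcest chaperone, Sdf2l1, stood out for WT mouse 1, which had 26.1 CPM against 11 and 10.5 CPM in the other WT livers and 7.81, 17.7 and 7.0 CPM in LKO livers (log2 -0.55, SE 0.45).

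**Figure D2:**
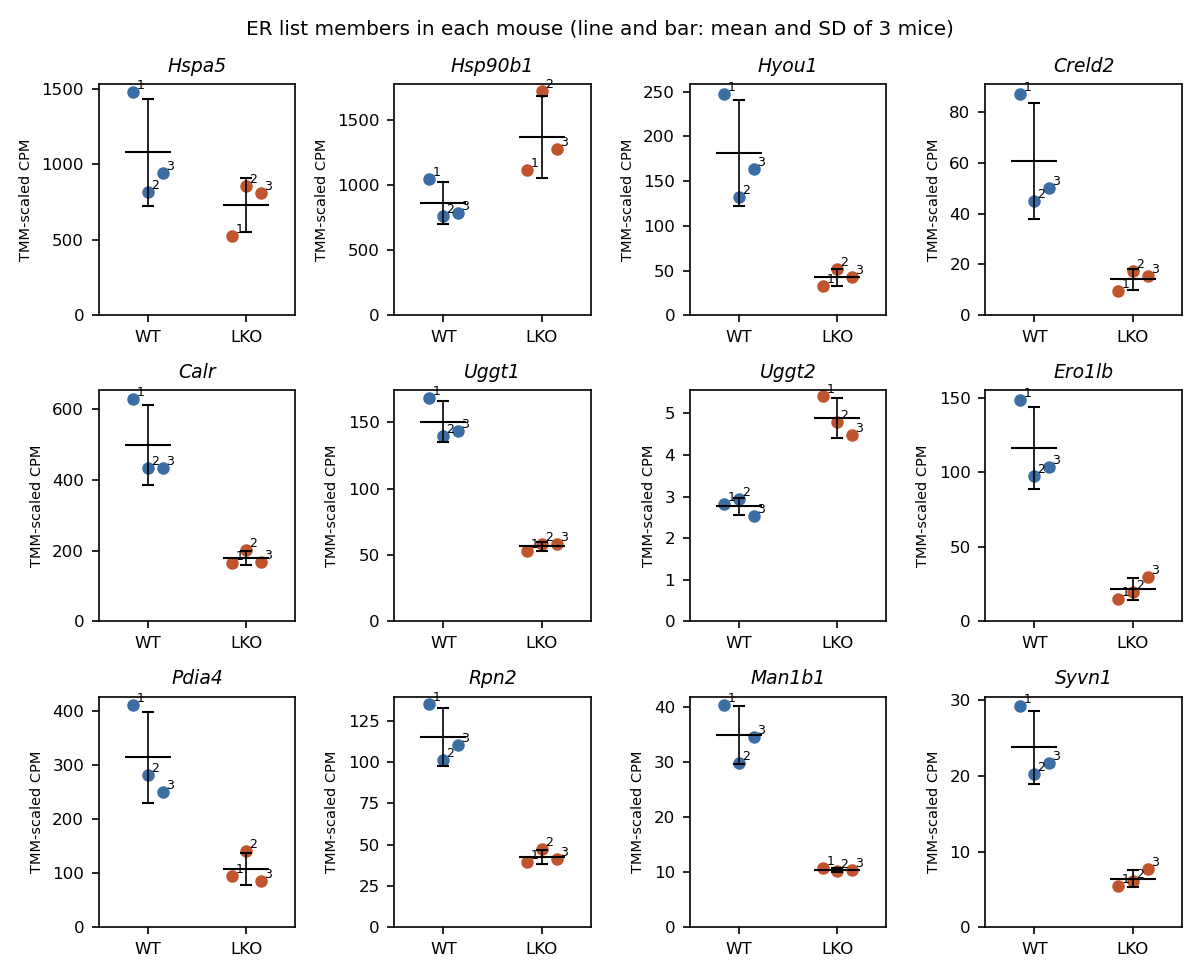
TMM-scaled CPM of 12 members in each mouse, with the number of the mouse beside each point and a line and bar for the mean and SD of 3 mice. Hspa5 overlaps between the genotypes, Hsp90b1 and Uggt2 are higher in every LKO liver at this scaling, and the other 9 genes are lower in every LKO liver.

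In the calnexin and calreticulin cycle, which keeps glycoproteins in the ER until they are folded, 3 of 4 members were lower and 1 was higher. Calr, the soluble lectin, had 629.9, 434 and 435 CPM in WT and 166, 203 and 169 CPM in LKO livers (log2 -1.48, SE 0.21). Its membrane-bound partner Canx fell less, from 468 to 541 CPM in WT to 267 to 348 CPM in LKO livers (log2 -0.75, SE 0.18). The 2 glucosyltransferases that mark unfolded glycoproteins for another round moved in opposite directions at TMM scaling. Uggt1, the main enzyme, had 168, 139.6 and 143 CPM in WT and 52.8, 58.3 and 58.5 CPM in LKO livers (log2 -1.41, SE 0.15). Uggt2, its paralog, had 2.82, 2.95 and 2.54 CPM in WT and 5.40, 4.79 and 4.47 CPM in LKO livers (log2 0.82, SE 0.20). Uggt2 was the scarcer of the pair in both genotypes, at 0.607 ± 0.143 TPM in WT and 0.35 ± 0.058 TPM in LKO livers (SD, n = 3), against 32.7 ± 3.56 and 4.25 ± 0.702 TPM for Uggt1. On TPM, which centres most genes below 0, Uggt2 was therefore not higher in LKO livers. Relative to the all-gene median of the same fit, its value stayed above 0 over the settings (0.54 to 1.06).

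Of the 5 genes of disulfide bond formation, 4 were lower. Ero1lb encodes ERO1β, the oxidase that passes oxidizing equivalents to the protein disulfide isomerases, and was the member with the largest fall. It had 148, 97.6 and 103 CPM in WT and 15.2, 19.8 and 29.7 CPM in LKO livers, 5.40-fold lower (log2 -2.43, SE 0.28). Every WT liver was above 3 times the highest LKO liver. Pdia4 (ERp72) had 410.2, 282 and 251 CPM in WT and 95.4, 141 and 85.8 CPM in LKO livers (log2 -1.55, SE 0.26). P4hb, the classic disulfide isomerase and a subunit of prolyl 4-hydroxylase, had 1011, 737 and 854 CPM in WT and 522, 485 and 434 CPM in LKO livers (log2 -0.85, SE 0.19). Pdia6 (P5) had 245 to 322 CPM in WT and 152 to 218 CPM in LKO livers (log2 -0.66, SE 0.20), and its call was lost without WT mouse 1 or 3 or LKO mouse 1 or 3. In each of these 4 genes the lowest WT liver was above the highest LKO liver. Pdia3 (ERp57), which works with the lectins on glycoproteins, did not pass. Its 244 to 274 CPM in WT overlapped the 170.3 to 251 CPM in LKO livers (log2 -0.40, SE 0.19), and it was called lower without LKO mouse 2.

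The N-glycan is built on a lipid carrier and moved to the nascent protein by oligosaccharyltransferase. Of 8 members of this step 6 were lower, with a median of -1.02. STT3A and STT3B are the alternative catalytic subunits, STT3A acting while the chain enters the ER and STT3B on sites that were missed. Stt3a had 90.5, 73.1 and 86.7 CPM in WT and 46.9, 61.5 and 50.7 CPM in LKO livers (log2 -0.65, SE 0.16), and its call was lost without WT mouse 1. Stt3b had 126, 89.5 and 95.3 CPM in WT and 91.3, 92.1 and 90.4 CPM in LKO livers (log2 -0.18, SE 0.16) and overlapped between the genotypes. The accessory subunits had lower fold changes than either catalytic subunit. Rpn2 went from 101 to 135 CPM in WT to 39.5 to 47.3 CPM in LKO livers (log2 -1.43, SE 0.16). Ddost had 52.4 to 66.4 and 20.4 to 24.6 CPM (log2 -1.37, SE 0.15). Dad1, the smallest of these subunits, had 14.7 to 16.6 and 6.42 to 7.37 CPM (log2 -1.24, SE 0.15), with a narrow spread in both genotypes. Rpn1 had 101 to 111 and 42.1 to 68.7 CPM (log2 -0.90, SE 0.19). None of the accessory subunits overlapped between the genotypes. Of the mannosyltransferases that extend the lipid-linked glycan, Alg2 was lower, with 9.36 to 13.4 and 4.66 to 5.38 CPM (log2 -1.13, SE 0.19), while Alg3, at 0.717 to 2.77 CPM, did not pass (log2 -0.64, SE 0.39).

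In the trimming of the glycan every member was lower, 7 of 7, with a median of -1.17. Mogs, glucosidase I, removes the outermost glucose, and had 24.6 to 29.4 CPM in WT and 11 to 12.9 CPM in LKO livers (log2 -1.23). Glucosidase II takes the next glucoses. Its catalytic subunit Ganab had 99.2 to 109.5 CPM in WT and 47.0 to 48.2 CPM in LKO livers (log2 -1.16), and its β subunit Prkcsh had 35.4 to 43.9 and 12.2 to 18.2 CPM (log2 -1.40). Man1b1, the ER mannosidase, fell furthest, from 40.4, 29.9 and 34.6 CPM in WT to 10.7, 10.2 and 10.4 CPM in LKO livers, 3.35-fold lower (log2 -1.75, SE 0.16). The EDEM proteins trim mannose from glycoproteins bound for degradation. Edem2 had 16.3 to 23.6 CPM in WT and 7.85 to 10.2 CPM in LKO livers (log2 -1.17). Edem1, at 110.3 to 156 and 82.4 to 96.6 CPM (log2 -0.59), and Edem3, at 79 to 99.9 and 55.8 to 71 CPM (log2 -0.51), had the smallest falls of the group. The calls of Edem1 and Edem3 were lost without WT mouse 1 and also without WT mouse 3 or LKO mouse 1, and that of Edem3 without LKO mouse 2.

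All 4 UPR sensors and effectors were lower. Ern1, which encodes IRE1α, the kinase and RNase that splices Xbp1 mRNA, had 30.7, 34.3 and 25.7 CPM in WT and 9.63, 8.23 and 12.3 CPM in LKO livers, 3.01-fold lower (log2 -1.59, SE 0.19). Eif2ak3, which encodes PERK, the kinase of eIF2α, had 19.4, 13.3 and 16.2 CPM in WT and 6.74, 7.62 and 7.80 CPM in LKO livers (log2 -1.14, SE 0.18). Atf6, the membrane-bound transcription factor, had 84.7, 104 and 105 CPM in WT and 51.1, 56.7 and 79.7 CPM in LKO livers (log2 -0.65, SE 0.20). Xbp1 had 166, 232 and 159 CPM in WT and 81.0, 138 and 96.4 CPM in LKO livers (log2 -0.82, SE 0.24). The genotypes did not overlap for any of the 4. The calls of Ern1 and Eif2ak3 were kept without any single mouse, whereas that of Xbp1 was lost without WT mouse 2, LKO mouse 1 or LKO mouse 3, and that of Atf6 without WT mouse 2 or 3 or LKO mouse 1 or 2. Gene-level counts do not separate the spliced from the unspliced form of Xbp1 and do not measure the activity of a sensor.

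Of 6 ERAD members 4 were lower and 2 did not pass. Of the ubiquitin ligase complex that receives misfolded proteins, Syvn1, Sel1l and Herpud1 were lower. Syvn1, which encodes the ligase HRD1, had 29.3, 20.2 and 21.7 CPM in WT and 5.45, 6.16 and 7.74 CPM in LKO livers, 3.68-fold lower (log2 -1.88, SE 0.21). Sel1l, its adaptor, had 209, 128 and 142 CPM in WT and 54.4, 57.3 and 51.2 CPM in LKO livers (log2 -1.55, SE 0.20). Herpud1, which helps to assemble the complex, had 467, 262 and 400.1 CPM in WT and 114, 159.5 and 261 CPM in LKO livers (log2 -1.08, SE 0.33). LKO mouse 3 almost reached WT mouse 2, and the call was lost without WT mouse 1 or 3 or LKO mouse 1 or 2. Of the derlins, which line the exit channel, Derl3 was lower (log2 -1.66, SE 0.45), with 1.93 to 4.13 CPM in WT and 0.584 to 1.63 CPM in LKO livers, and its call was lost without WT mouse 1 or LKO mouse 1. Derl1, with 96.0 to 114 and 88.8 to 119.5 CPM (log2 -0.05, SE 0.16), and Derl2, with 83.8 to 93.1 and 63.1 to 86.0 CPM (log2 -0.27, SE 0.16), overlapped between the genotypes and did not pass. Derl1 had 38.4 ± 17.9 reads for each read of Derl3 in WT and 119.8 ± 47.3 in LKO livers (SD, n = 3).

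**Figure D3:**
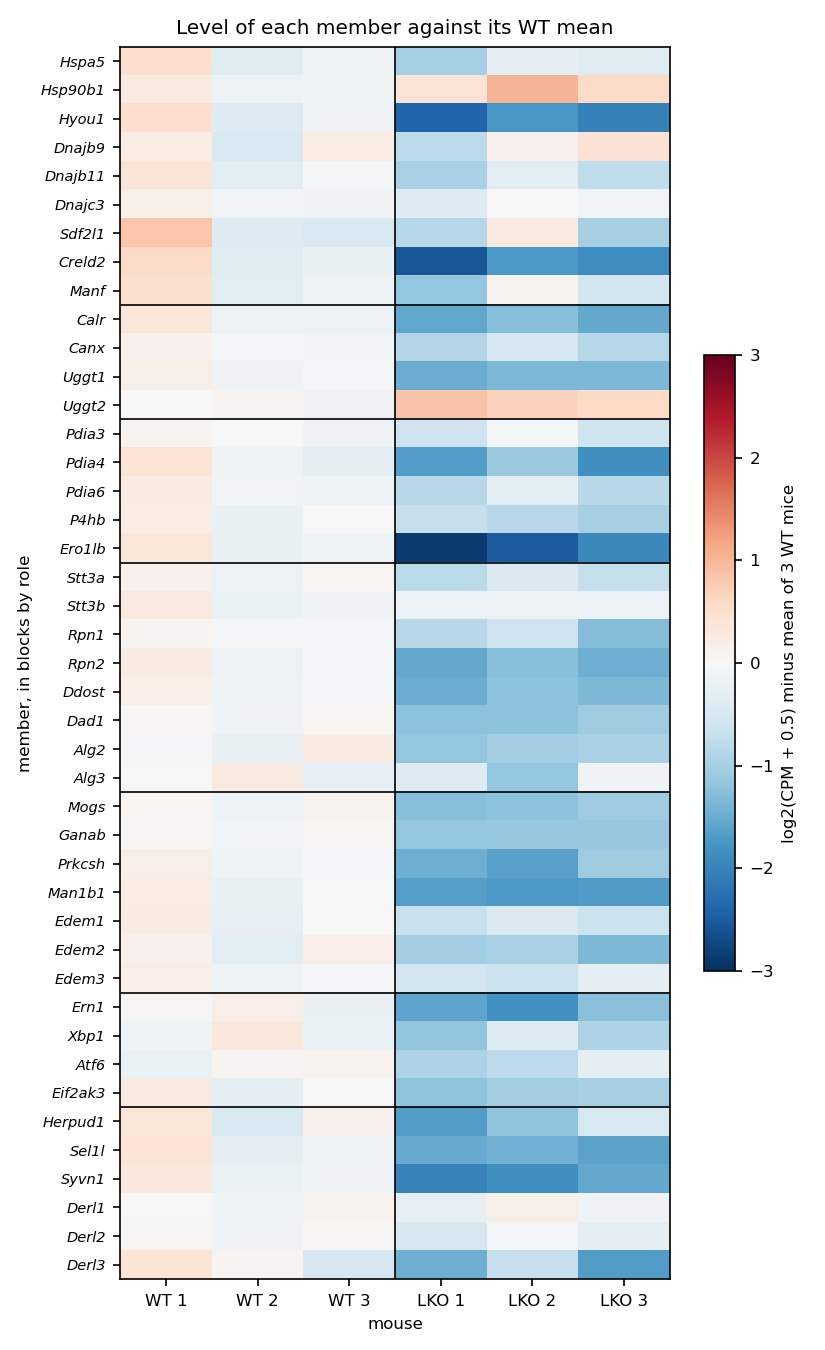
Log2(CPM + 0.5) of each member (rows, blocks by role) in each mouse (columns), minus the mean of the 3 WT mice, with CPM scaled by TMM, red for higher and blue for lower. WT mouse 1 is the highest WT mouse for 30 of 43 members, and the rows of Hsp90b1 and Uggt2 are red in all LKO mice at this scaling.

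The members also moved together between mice of one genotype, a pattern that was chosen after the values were seen and has no test. WT mouse 1 was the highest WT mouse for 30 of 43 members (69.8%), where it was the highest for 31.1% of all genes tested. Among chaperones it was the highest for 8 of 9. In LKO livers, mouse 2 was the highest for 25 of 43 members (58.1%, against 34.3% of all genes) and again for 8 of 9 chaperones. On the log2 scale the median member stood at 0.22, -0.18 and -0.07 from its WT mean in the 3 WT livers in turn, and at -1.13, -0.79 and -0.96 in the 3 LKO livers. The gap between the genotypes was larger than the spread within either, but the members were chosen with that gap known, so this is a description. Without WT mouse 1, 24 members were lower and 1 was higher (15.3% and 15.5% of all genes), and the median relative to all genes remained -0.86.

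Ratios of reads within a library do not depend on scaling between libraries, and these pairs were likewise picked with their values known. Hsp90b1 had 0.825 ± 0.112 reads for each read of Hspa5 in WT and 1.90 ± 0.291 in LKO livers (SD, n = 3), so that the order of the 2 chaperones was reversed. The ratio of Hyou1 to Hspa5 was 0.168 ± 0.00542 in WT and 0.0589 ± 0.00545 in LKO livers, even though Hspa5 itself differed widely between WT mice. Uggt2 to Uggt1 went from 0.0185 ± 0.00229 to 0.0869 ± 0.0136, and Stt3b to Stt3a from 1.24 ± 0.145 to 1.74 ± 0.226. Calr to Canx went from 1.00 ± 0.142 to 0.610 ± 0.0231, and Pdia4 to Pdia3 from 1.2 ± 0.26 to 0.541 ± 0.0345. No pair overlapped between the genotypes. Each ratio shows that 2 genes changed unequally and not which of them changed.

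**Figure D4:**
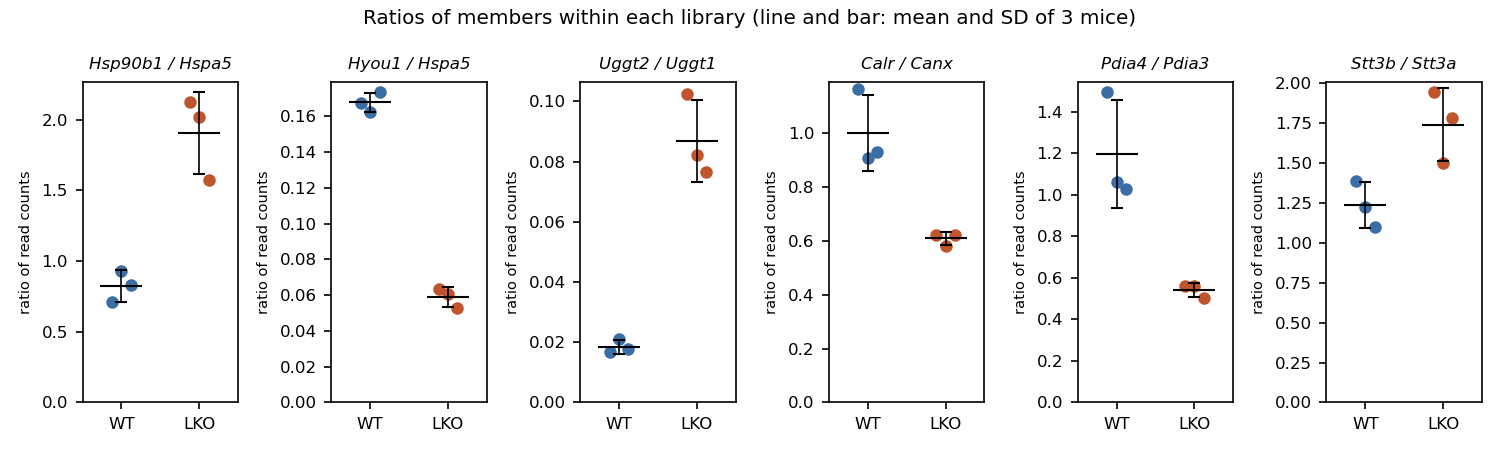
Ratio of the read counts of 2 members within each library, 1 point per mouse, with a line and bar for the mean and SD of 3 mice. The LKO livers lie above the WT livers for Hsp90b1 to Hspa5, Uggt2 to Uggt1 and Stt3b to Stt3a, and below them for Hyou1 to Hspa5, Calr to Canx and Pdia4 to Pdia3.

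The level of the members was also read per length of gene. By mean TPM, the first 3 members in WT livers were Hspa5 (829 ± 264), Hsp90b1 (616 ± 114) and P4hb (595 ± 84.0), whose SDs overlap, followed by Calr (506 ± 115; SD, n = 3). In LKO livers Hsp90b1 stood first (329.6 ± 30.3), followed by Hspa5 (192 ± 46.5) and P4hb (114 ± 20.4). Calr (62.0 ± 4.53) and Herpud1 (63.0 ± 33.4) then lay within each other's spread. Summed TPM of all members were 4771 to 6643 in WT and 1141 to 1415 in LKO livers, at a scaling that centres most genes below 0.

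Members with and without ERSE or ERSE-II were set side by side. Of the 11 members with a match 8 were lower, and their log2 fold changes had a median of -1.08 (range -2.43 to 0.66). Of the 27 members with a window and no match 20 were lower and 1 was higher, with a median of -0.90. Among 18 other tested genes with a match 3 were lower and 6 were higher, with a median of 0.67. Of 12515 other tested genes with a window and no match 2877 were lower (23.0%) and 2455 higher, with a median of -0.11. The element thus stood before Ero1lb and Creld2, which fell most, and also before Hspa5, Dnajc3 and Hsp90b1, which did not pass.

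To describe other parts of the secretory pathway, 153 other genes were listed by function, of which 148 were tested. They too were chosen with earlier results of these data known. Of these 45 were lower and 35 were higher in LKO livers, with a median of -0.15. Of all genes 20.5% were lower and 19.6% higher, and the counts by function below are to be read beside these shares. Translocation into the ER had 6 lower and 8 higher of 27. Sec61a1, the channel of the translocon, had 161, 135 and 155 CPM in WT and 45.6, 59.7 and 51.7 CPM in LKO livers (log2 -1.52, edgeR adjusted p = 0.00039). Sec61g, its small γ subunit, had 30.1, 27.1 and 32.4 CPM in WT and 61.0, 143 and 58.4 CPM in LKO livers (log2 1.55, edgeR adjusted p = 0.0073). The ratio of Sec61g to Sec61a1 within a library went from 0.199 ± 0.0110 to 1.62 ± 0.679 (SD, n = 3), so subunits of one channel differed in opposite directions at TMM scaling. Sec61b, the β subunit, did not pass (log2 -0.42, edgeR adjusted p = 0.24) and was called lower without LKO mouse 2. Ssr4, a subunit of the translocon-associated complex, was higher (log2 1.72, edgeR adjusted p = 0.0038), as was Srp9 of the signal recognition particle (log2 1.46, edgeR adjusted p = 0.00094), which binds 7SL RNA. With total counts in place of TMM, Sec61g was at 0.63, Ssr4 at 0.80 and Srp9 at 0.59 on the log2 scale. Of the other secretory genes 102 were then lower and 7 higher, where 51.4% and 6.27% of all genes were. Short genes such as Sec61g and Srp9 may share reads with processed copies, and how reads with several matches were counted is not given in the sources used here.

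Of 36 other folding enzymes 12 were lower and 8 higher. Txndc5, a disulfide isomerase, was lower (log2 -1.49, edgeR adjusted p = 0.0013), as was the prolyl isomerase Fkbp11 (log2 -1.86, edgeR adjusted p = 0.0051), whereas its relative Fkbp7 was higher (log2 1.81, edgeR adjusted p = 0.00091). Kdelr1, a receptor that returns chaperones from the Golgi, was lower (log2 -1.01, edgeR adjusted p = 0.0016), and Kdelr2 (log2 -0.37, edgeR adjusted p = 0.14, called lower without LKO mouse 2) and Kdelr3 (log2 -0.78, edgeR adjusted p = 0.31) did not pass. Of 36 other genes of N-glycan assembly and transfer 14 were lower and 8 higher. Gnpnat1, an enzyme of UDP-GlcNAc synthesis, had 48.9, 51.6 and 68.1 CPM in WT and 232, 394 and 279 CPM in LKO livers, 5.37-fold higher (log2 2.42, edgeR adjusted p = 0.00035), and it was higher with total counts as well (log2 1.53). Dolpp1, which recycles the lipid carrier, was lower (log2 -1.52, edgeR adjusted p = 0.0012). Of 30 other ERAD genes 9 were lower and 7 higher, among them the ligase Rnf5 (log2 -1.47, edgeR adjusted p = 0.0013) and the glycan-binding F-box gene Fbxo6 (log2 1.43, edgeR adjusted p = 0.0013).

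**Figure D5:**
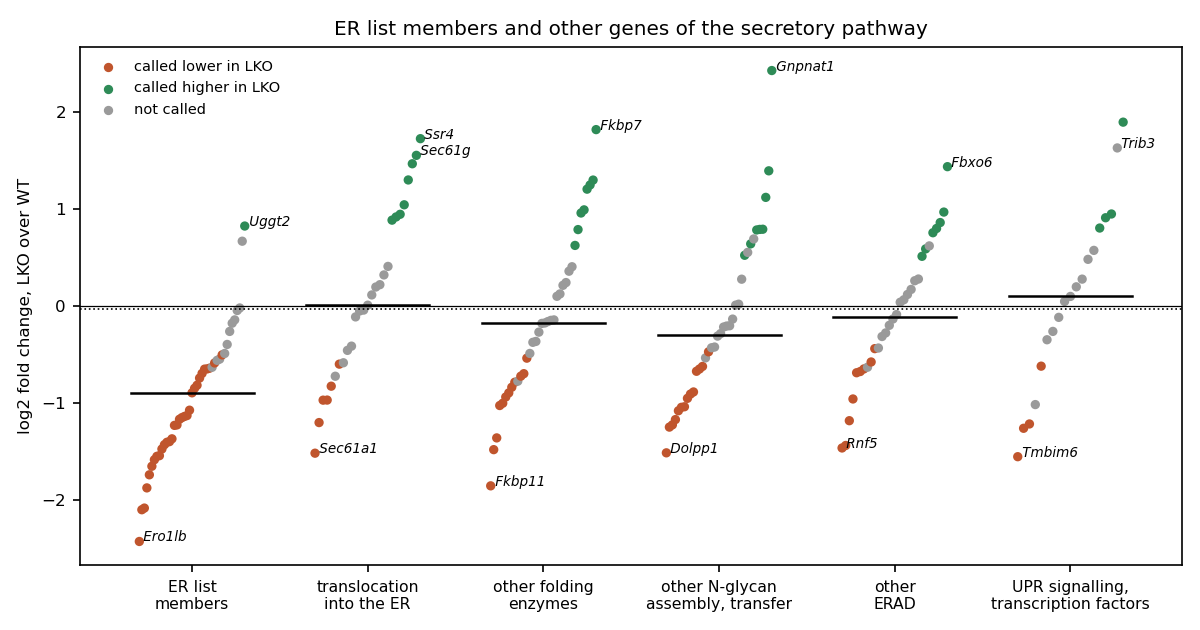
Log2 fold change (LKO over WT, TMM-scaled counts, edgeR) of the 43 members and of 148 other tested genes of the secretory pathway by function, sorted within each column, with a bar at each median and a dotted line at the median of all genes. The members have a median of -0.90, and the other columns hold genes on both sides of 0.

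Downstream of the sensors, 4 of 19 tested genes were lower and 4 higher, close to the 20.5% and 19.6% of all genes. The genes of the PERK branch named below differed in sign, and only Ddit3 passed. Atf4, its transcription factor, had 70.4, 54.3 and 65.3 CPM in WT and 42.5, 59.0 and 94.3 CPM in LKO livers (log2 0.04, edgeR adjusted p = 0.91). Ddit3, which encodes CHOP, was lower, with 4.48 to 8.55 CPM in WT and 2.02 to 3.44 CPM in LKO livers (log2 -1.22, edgeR adjusted p = 0.017), and its call was lost without WT mouse 1 or LKO mouse 2. Ppp1r15a, which encodes the phosphatase subunit GADD34, did not pass (log2 0.48, edgeR adjusted p = 0.30), nor did Chac1 (log2 -1.02, edgeR adjusted p = 0.21), which was called lower without LKO mouse 3. Trib3 had 1.22 to 1.26 CPM in WT and 2.11, 1.29 and 8.08 CPM in LKO livers (log2 1.63, edgeR adjusted p = 0.063), with LKO mouse 3 far above the other livers. Tmbim6, which encodes the ER membrane protein BAX inhibitor 1, was lower (log2 -1.56, edgeR adjusted p = 0.00093).

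Markers of liver cell types differed between the genotypes as well, by amounts that depended on scaling. Of all genes, 20.5% were lower and 19.6% higher at TMM scaling, and 51.4% and 6.27% with total counts. On log2(TPM + 1), which centres most genes below 0, hepatocyte markers ran from -2.95 to 0.50 (Alb 0.16). Those of Kupffer cells ran from -1.52 to 0.36, of endothelial cells from -1.35 to 0.10 and of stellate cells from -0.78 to 0.56. Values below are at TMM scaling unless stated. The hepatocyte list was expressed in every library, with 4 of 6 genes higher and 1 (Ttr) lower, and Alb had a log2 fold change of 1.72 (edgeR adjusted p = 0.0079). The summed Kupffer cell markers were 210.2 to 332 CPM in WT and 387 to 771 CPM in LKO livers, with 3 of 5 higher. Those of endothelial cells were 211 to 252 and 362 to 388 CPM (3 of 5 higher), and those of stellate cells 158 to 193 and 533 to 847 CPM (3 of 5 higher). Neutrophil markers summed to 3.35 to 10.6 and 14.5 to 29.1 CPM, with 3 higher and 1 lower of 4 tested. No marker was higher in the remaining lists. Cholangiocyte markers summed to 32.9 to 50.1 and 13.4 to 29.9 CPM (1 of 4 tested lower), B and plasma cell markers to 20.2 to 29.1 and 18.7 to 26.3 CPM (1 of 5 lower), and T cell markers to 3.15 to 5.55 and 1.26 to 1.54 CPM (1 of 4 tested lower). With total counts, the lower and higher genes were 1 and 4 of the hepatocyte, 1 and 2 of the Kupffer cell, 2 and 2 of the endothelial, 1 and 2 of the stellate and 1 and 1 of the neutrophil markers, with 1 cholangiocyte, 2 B and plasma cell and 3 T cell markers lower. The lower B and plasma cell marker, Mzb1, is itself an ER co-chaperone of antibody-secreting cells, and Krt7, Cd3d, Ly6g and 4 of 5 pancreatic acinar markers were left out by the filter on zero counts. Cd3d, a T cell marker, had 49, 34 and 12 reads in WT and 0 in each LKO liver, and was lower when no filter was used (edgeR adjusted p = 0.0035). The part of other cell types, and of the larger share of 7SL RNA in LKO libraries, in the levels of the members was not tested.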

How the data were processed

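Liver RNA of 3 WT and 3 LKO mice was sequenced, 1 library per mouse, and the genotype given in the labels set the 2 groups. The labels number the samples as replicates, taken here as separate mice, and p-values measure the spread between these samples, which may be technical. The labels name 1 μg of total RNA and an mRNA kit, whereas the methods name a total RNA kit with rRNA depletion. Both kits keep strand, and whether strand was used in counting is not given in the sources used here. The authors obtained read counts per gene with StringTie on mm10 and deposited them without normalization, beside FPKM that they computed per kilobase and by fragments sequenced and TPM that they scaled to one sum per mouse. The submitters' processing notes list HISAT2 2.1.0, Bowtie2 2.3.4.1 and StringTie 2.1.3b with no roles.

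Following the methods, a gene was kept if at most 1 of the 6 libraries had a zero count, which left 18636 genes (13858 protein coding). On the deposited counts, edgeR 4.0.16 (R 4.3.3) was run with TMM factors and its quasi-likelihood F-test (genotype as the factor, two-sided, Benjamini-Hochberg adjustment over all genes, threshold 0.05). CPM are TMM-scaled. Errors are SDs of 3 mice or standard errors from the fit, at total counts of 45934632 to 59576437. The procedure was run on simulated counts, but whether TMM scaling suits libraries that differ this much in composition was not tested. FPKM entered only relative gene length (count over FPKM), of which a lowess trend (span 0.3) served as offsets in 1 alternative. Entrez numbers of 45679 genes matched the RefSeq table of GRCm38.p6, from which promoter windows and coordinates were taken.

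The members, the other secretory genes and the marker lists were chosen with earlier results of these data known. All members could be named. Of the other secretory genes, the 6 with the largest change in each direction were eligible among called genes whose mean reached 1 CPM and whose WT and LKO values did not overlap, and Atf4, Ddit3, Trib3, Ppp1r15a, Chac1, Sec61b and Kdelr1 to Kdelr3 were always named. Pak4, Alb, Rn7s1 and Rn7s2 served as checks of the series. Alternatives were DESeq2 1.42.0, exactTest, scaling by size factors of DESeq2, by upper quartiles or by total counts, protein-coding genes alone, 3 other filters, gene length, the replicate number as a block, limma 3.58.1 on log2(TPM + 1) and log2(TPM + 0.1), stricter thresholds and leaving out each mouse.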

Additional observations from a re-analysis of the deposited data

How the results depend on the processing

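With 31 members lower in LKO livers, other settings gave 21 to 43 lower, and 21 members were called lower in all 21 fits at the 0.05 threshold. Leaving out each mouse in turn gave 23 to 29 lower and 1 to 2 higher (15.3% to 20.3% and 15% to 18.9% of all genes), and 22 of the 31 kept their call each time. The count of 1 higher became 2 with DESeq2, exactTest, at least 10 counts, filterByExpr, gene length, protein-coding genes alone or upper-quartile factors (Hsp90b1 joined Uggt2), and 0 at an adjusted p under 0.01, with at least 2-fold, with total counts and with TPM at either pseudocount. Total counts and TPM centre most genes below 0. All genes lower and higher were then 9573 and 1169 (total counts), 13322 and 453 (log2(TPM + 1)) and 13535 and 467 (log2(TPM + 0.1)), against 3815 and 3661, and the other secretory genes 102 and 7, 132 and 1, and 132 and 1, against 45 and 35. The member median relative to all genes was -1.49 and -1.12 on log2(TPM + 1) and log2(TPM + 0.1), against -0.86. At an adjusted p under 0.01, 2112 genes were lower and 2262 higher (11.3% and 12.1% of all genes), with 28 other secretory genes lower. With at least 2-fold, 2185 genes were lower and 2454 higher (11.7% and 13.2% of all genes). Of the 148 other secretory genes tested, 20 were then lower and 14 higher.

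Values that changed sign are given as log2 fold change minus the all-gene median of the same fit, and none but Ost4 had passed the test. Hsp90b1 was -0.10, Kdelr3 0.48, Atf4 -0.74, Ost4 -0.10 and Dnajb9 -0.76 on log2(TPM + 1), and Atf4 was -0.23 and Dnajb9 -0.28 on log2(TPM + 0.1). Derl1 was 0.046 with filterByExpr, 0.012 with no filter, 0.053 with protein-coding genes alone and 0.080 with gene length, where Dnajc3 was 0.019 and Ost4, which had passed, was -0.088. The cause was not tested. Leaving out each mouse in turn gave -0.26 to 0.33 for Atf4, -0.14 to 0.094 for Derl1, -0.23 to 0.31 for Dnajb9, -0.20 to 0.018 for Dnajc3, -1.06 to 0.045 for Sdf2l1 and -0.27 to 0.020 for Stt3b.

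The replicate numbers are shared by WT and LKO mice but mark different animals, and same-numbered mice did not deviate together (r = 0.0563, -0.0172 and -0.0797 over 12998 genes). With the replicate block, 27 members were lower and 1 higher (17.7% and 16.8% of all genes), and Dnajb9 was -0.017. With the replicate block and gene length, 24 were lower and 1 higher (16.1% and 17.2% of all genes), and Atf4 was -0.011, Derl1 0.085, Dnajb9 -0.024, Dnajc3 0.032, Ost4 -0.093 and Stt3b 0.0061. With 3 mice a genotype, Sdf2l1, Derl3 and Alg3 had the widest standard errors of the members (0.45, 0.45 and 0.39).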

Other observations

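The genes below belong to the other secretory genes and were named after their values were seen. Subunits of oligosaccharyltransferase outside the member list did not share one direction. Krtcap2, an accessory subunit of the STT3A complex, had 15.4 to 16.9 CPM in WT and 4.91 to 8.38 CPM in LKO livers (log2 -1.25, edgeR adjusted p = 0.0023). Tusc3, an oxidoreductase subunit of the STT3B complex, had 9.70 to 10.3 and 11.7 to 22.1 CPM (log2 0.79, edgeR adjusted p = 0.025), whereas its paralog Magt1 had 107 to 151 and 69.5 to 117 CPM (log2 -0.44, edgeR adjusted p = 0.16). The small subunit Ost4 was higher (log2 0.64, edgeR adjusted p = 0.038), but its value was -0.09 with the gene length trend and -0.25 with total counts, where Tusc3 was at -0.10. The calls of Ost4 and Tusc3 were lost without LKO mouse 1 or 2 or any WT mouse.

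The signal recognition particle, which halts translation and brings ribosomes to the ER, showed a like division. Srp14, the partner of Srp9 on 7SL RNA, had 19.5 to 23.1 CPM in WT and 39.0 to 51.2 CPM in LKO livers (log2 1.04, edgeR adjusted p = 0.0014), and 0.16 on the log2 scale with total counts. Srp68 had 16.5 to 26.7 and 9.52 to 13.4 CPM (log2 -0.98, edgeR adjusted p = 0.0081). The receptor subunits Srpr (log2 -0.83, edgeR adjusted p = 0.013) and Srprb (log2 -1.21, edgeR adjusted p = 0.0019) were lower, and the call of Srpr was lost without WT mouse 3. Srp9 had 2.37 ± 0.534 reads for each read of Srp68 in WT and 13.0 ± 4.51 in LKO livers (SD, n = 3), a ratio that scaling between libraries does not affect. The 7SL RNA genes themselves had log2 fold changes of 2.43 (Rn7s1) and 2.46 (Rn7s2), and the part of the 7SL share in these values was not tested.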
